A study of Mus musculus with 7 samples.

Results

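RNA of 8 myeloid C-type lectin receptors was measured in neutrophils sorted from acetaminophen-injured mouse livers: Clec4a2, Clec4d, Clec4e, Clec4n, Clec5a, Clec7a, Clec12a and Mrc1. Of these, 7 lie on chromosome 6 and Mrc1 on chromosome 2. The members were chosen by gene symbol, as activating and inhibitory receptors of this family that myeloid cells carry, and 8 of the 8 symbols had a row among the 16047 genes of the deposited expression table. Levels are in RPKM, read numbers scaled by the length of the transcript and by the mapped reads of the library. All 8 were tested, as were 9594 genes in all, for which the mean of the 7 libraries had to reach 1 RPKM.

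The C57BL/6 mice of both groups received acetaminophen (APAP), and liver neutrophils were taken at 24 h of the resulting liver injury (AILI). Starting 12 h ahead of APAP and repeated at intervals of 24 h, mice were given either PBS (4 mice, numbered 5 to 8) or MC-21 (3 mice, numbered 2 to 4), an antibody against the chemokine receptor CCR2, as 400 µL of conditioned medium with 29 µg/mL, which left the livers deficient in infiltrating Ly6Chi monocytes. From each liver, 50000 cells with the surface phenotype CD11b+Ly6CloCX3CR1-GFP-Ly6G+ were sorted for 1 library of 3′ RNA-seq, so that each library is 1 mouse. The labels list no reporter allele for these mice although the gate names one, the control injection was PBS and not conditioned medium with another antibody, and the labels name no batch.

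C-type lectin receptors are surface proteins with a carbohydrate-recognition or related fold, with which myeloid cells sense fungi, mycobacteria and products of dead cells. Activating members signal through the kinase Syk and the adaptor CARD9, either by a motif of their own or by pairing with the adaptor chains FcRγ (Fcer1g) or DAP12 (Tyrobp). DAP10 (Hcst) is a further adaptor chain. Inhibitory members carry an ITIM, a tyrosine motif that recruits phosphatases. On neutrophils these receptors are known for setting the threshold of cytokine release and of the oxidative burst, and Clec12a is known as a receptor for uric acid crystals, which dying cells release.

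The presumed promoters of 3 members are shown first, since the results below turn on Clec12a, the only member with a significant difference between the groups, on Clec4d, the most abundant member, and on Clec7a, which lies close to Clec12a on chromosome 6. Each window runs from 250 bases before to 50 bases after a RefSeq start site and was placed on mm9 by an exact match. Capitals mark the letters GAGGAAG or, on the other strand, CTTCCTC, a motif of PU.1, the transcription factor that myeloid genes share.
Clec12a (mm9 chr6:129300012-129300311, + strand): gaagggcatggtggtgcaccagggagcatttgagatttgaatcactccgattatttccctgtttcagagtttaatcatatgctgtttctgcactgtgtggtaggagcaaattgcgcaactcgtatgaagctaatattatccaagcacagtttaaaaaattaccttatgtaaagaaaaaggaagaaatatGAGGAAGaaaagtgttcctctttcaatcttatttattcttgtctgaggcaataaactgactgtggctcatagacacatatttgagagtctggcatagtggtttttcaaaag
Clec4d (mm9 chr6:123211875-123212174, + strand): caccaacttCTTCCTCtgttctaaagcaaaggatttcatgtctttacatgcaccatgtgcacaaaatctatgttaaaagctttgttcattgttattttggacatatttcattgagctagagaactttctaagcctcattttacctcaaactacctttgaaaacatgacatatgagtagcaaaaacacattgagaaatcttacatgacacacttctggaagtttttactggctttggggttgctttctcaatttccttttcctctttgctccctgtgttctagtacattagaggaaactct
Clec7a (mm9 chr6:129422748-129423047, - strand): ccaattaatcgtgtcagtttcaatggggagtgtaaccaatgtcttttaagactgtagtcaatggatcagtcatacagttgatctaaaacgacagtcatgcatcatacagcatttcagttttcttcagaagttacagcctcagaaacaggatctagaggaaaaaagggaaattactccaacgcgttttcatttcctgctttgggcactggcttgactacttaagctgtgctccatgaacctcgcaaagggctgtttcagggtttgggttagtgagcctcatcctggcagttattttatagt

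Counted from the start site, the PU.1 letters of the Clec12a window began at -61 on the + strand, and those of the Clec4d window at -241 on the other strand. The Clec7a window held none. RefSeq windows were matched for 7 of the 8 members, with none for Clec4n, and 4 of the 7 held the PU.1 letters on either strand (Clec12a, Clec4d, Clec5a and Mrc1), as did 13.5% of 27025 promoters of the same length. A C/EBP motif (TTNCNNAA) was found in 6 of the 7, against 40.7% of all promoters. In the Clec12a window 1 of its matches, TTGCGCAA, began at -140. The letters TGANTCA, a loose AP-1 motif with any middle base, were found in 2 of the 7 against 7.93% of all promoters. They read TGAATCA in Clec12a and TGACTCA in Clec4a2. Only the match of Clec4a2 has the usual AP-1 letters, so no AP-1 motif is claimed for Clec12a. An NF-kappaB motif (GGG and CC with any 5 bases between them) was found in 1 of the 7 (Mrc1) against 50.4%. The letters TATAAA were found in 4 of the 7 against 14.2%, at any position of the window. Only the match of Clec4e, at -29, lay where a TATA box is usual. Those of Clec5a, Clec4a2 and Clec7a began at -209, -161 and 43, and a second RefSeq window of Clec7a held none. Among the 7448 promoters of genes tested here, the shares were 14.4% for PU.1, 31.9% for C/EBP, 5.3% for TGANTCA, 68.6% for NF-kappaB and 7.26% for TATAAA. All 5 motifs were searched on both strands, and a match describes letters and not a bound site. The starts of Clec12a and Clec4a2 lie inside the annotated spans of these genes, since the annotation of mm9 used here has transcripts that begin further upstream.

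The inhibitory receptor Clec12a (also MICL, with an ITIM in its cytoplasmic tail; mm9 chromosome 6, 129292709 to 129315321, + strand) was the only member that passed the test. Its level was 19.9, 25.0, 12.5 and 17.6 RPKM in PBS mice 5 to 8 and 82.5, 71.3 and 43.0 RPKM in MC-21 mice 2 to 4. Every MC-21 library was thus above every PBS library, with MC-21 mouse 4 nearest to the PBS group. On log2(RPKM + 1), Clec12a rose in MC-21 neutrophils by 1.74 (SE 0.27, 95% confidence interval 1.13 to 2.35, limma adjusted p = 0.0287), which is 3.35-fold on that scale. The median difference of all genes tested was -0.15, and with each library centred on its own median the rise of Clec12a was 1.91. The call itself depended on the libraries and the test, and the adjusted p lay between 0.0145 and 0.289 under 15 alternatives and was under 0.05 in 7 of them. Leaving out MC-21 mouse 2 or 3 gave an adjusted p of 0.0980 or 0.0976 with limma, and leaving out PBS mouse 5, 7 or 8 gave 0.0621, 0.060 or 0.111, while the difference stayed between 1.55 and 2.02 when any 1 library was left out. The smallest p that 4 against 3 libraries allow in an exact permutation test is 0.0286 (two-sided, 35 splits), and Clec12a reached it. Between 74 and 185 reads stood behind a PBS value and between 252 and 655 behind an MC-21 value, as calculated from the steps of the low RPKM values and the longest annotated transcript.

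Among the 8 receptors, 1 had an adjusted p under 0.05, against 0.625% of all genes tested in either direction and 0.198% for genes higher in MC-21 neutrophils. At an unadjusted p under 0.05 there were 2 (Clec12a and Clec4d), against 14.7% of all genes. The groups did not overlap for 2 members, both higher in MC-21 neutrophils. Of all genes tested, 3.1% were higher without overlap, a share that leaves out genes lower without overlap. The difference was above 0 for 5 members and below 0 for 3, with a median of 0.31 over the members.

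**Figure D1:**
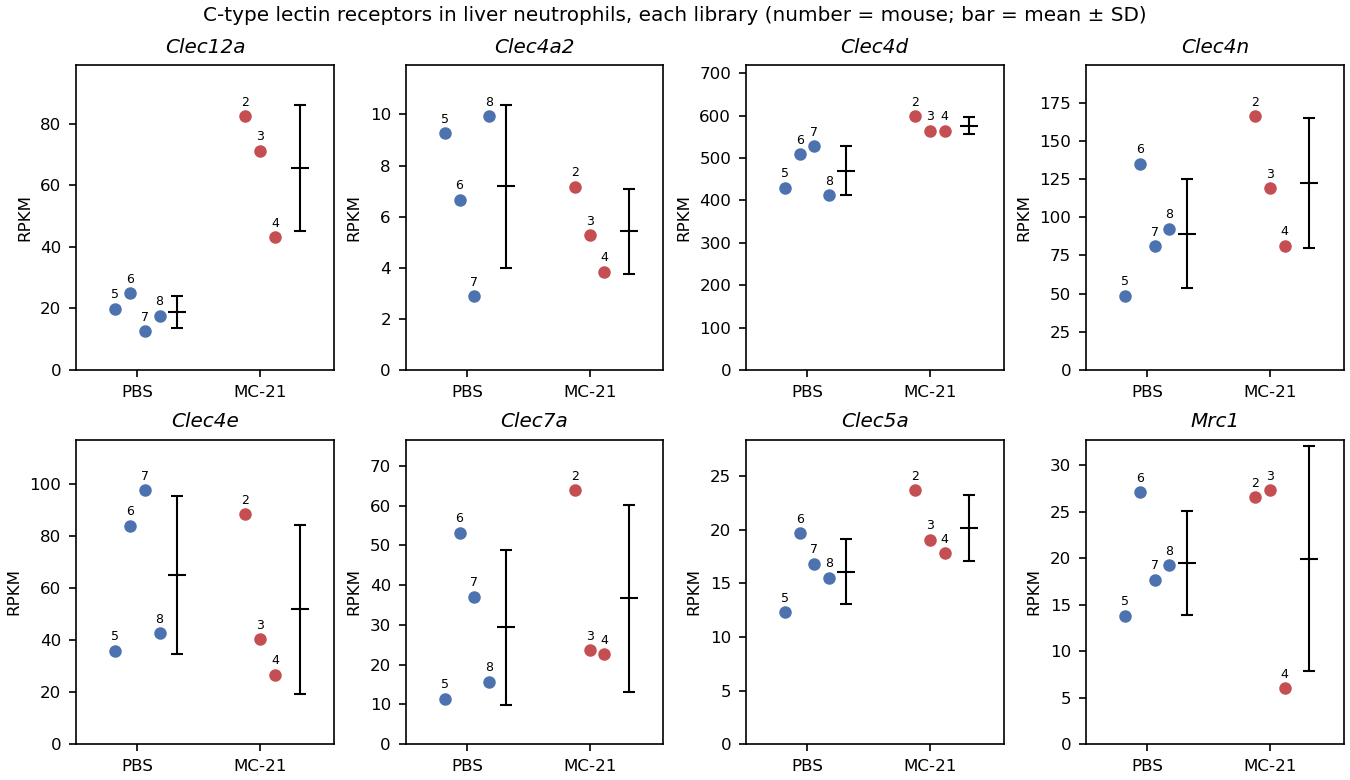
RPKM of each receptor (vertical axes, each starting at 0) in the 4 PBS and 3 MC-21 libraries, with the mouse number beside each point and bars for mean ± SD. Only Clec12a and Clec4d have all MC-21 points above all PBS points, and for Clec12a the gap runs from 25.0 to 43.0 RPKM.

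The other inhibitory member, Clec4a2 (also DCIR, which carries an ITIM; chromosome 6, 123056446 to 123094017, + strand), was the member with the lowest mean level. It measured 9.26, 6.66, 2.87 and 9.94 RPKM in PBS mice 5 to 8 and 7.17, 5.28 and 3.85 RPKM in MC-21 mice 2 to 4. All MC-21 values lay within the range of the PBS group, whose lowest library, mouse 7, set that range. The difference was -0.27 (95% interval -1.08 to 0.53, limma adjusted p = 0.764). These levels rested on 19 to 98 reads a library with the longest transcript, and 6.49% of the 50-base stretches of its transcripts also occur in other genes, Clec4a4 and Clec4b1 among them, so that part of its reads may not be its own. The interval of Clec4a2 ended below that of Clec12a, and the ratio of Clec12a to Clec4a2 was 1.77 to 4.36 in PBS and 11.2 to 13.5 in MC-21 libraries.

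The activating receptors of the Dectin-2 cluster, which pair with FcRγ, include the most abundant member. Clec4d (also MCL, a receptor for mycobacterial glycolipid; chromosome 6, 123212125 to 123225286, + strand) measured 429.9, 509.5, 529 and 413 RPKM in PBS mice 5 to 8 and 599, 564 and 564 RPKM in MC-21 mice 2 to 4. All MC-21 libraries were above all PBS libraries, and they lay closer to each other than the PBS libraries did. In RPKM, the mean ± SD was 470.2 ± 57.3 for the PBS group (n = 4) and 576 ± 20.2 for the MC-21 group (n = 3). Clec4d was the gene of rank 165 by mean RPKM in PBS neutrophils and of rank 139 in MC-21 neutrophils. The difference of 0.30 (SE 0.13, 95% interval 0.01 to 0.59) did not pass the adjustment (limma p = 0.0455, adjusted p = 0.329), and the exact permutation test on the log2 values gave p = 0.0571. Relative to the median of all genes the difference was 0.46. Its size is small next to that of Clec12a, but its level is not: Clec4d alone was 59.2 to 74.0% of the summed RPKM of the 8 members in PBS libraries and 56.7 to 73.7% in MC-21 libraries.

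Clec4e (also Mincle, a receptor for the mycobacterial cord factor and for a nuclear protein of dead cells; chromosome 6, 123231807 to 123239889, - strand) lies next to Clec4d on the opposite strand. Its values were 36.0, 84.2, 97.8 and 42.7 RPKM in PBS mice 5 to 8 and 88.6, 40.4 and 26.7 RPKM in MC-21 mice 2 to 4. Both groups held libraries near 40 and libraries above 80 RPKM, and the highest value was 2.71 times the lowest within the PBS group and 3.32 times within the MC-21 group. The difference of -0.38 had an interval of -1.37 to 0.62 (limma adjusted p = 0.733) and thus held values on both sides of 0.

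Clec4n (also Dectin-2, a receptor for fungal mannans; chromosome 6, 123179861 to 123197039, + strand) measured 48.5, 135, 80.9 and 92.5 RPKM in PBS mice 5 to 8 and 166, 119 and 81.2 RPKM in MC-21 mice 2 to 4. The highest library was MC-21 mouse 2 and the lowest PBS mouse 5, and the groups overlapped between them. The difference of 0.48 (95% interval -0.28 to 1.24) did not pass the test (limma adjusted p = 0.549).

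Of the activating receptors outside that cluster, Clec7a (also Dectin-1, the receptor for fungal beta-glucan, which has a Syk-binding motif of its own; chromosome 6, 129411611 to 129422790, - strand) varied most between PBS mice. It measured 11.4, 53.2, 37.1 and 15.7 RPKM in PBS mice 5 to 8 and 63.9, 23.7 and 22.6 RPKM in MC-21 mice 2 to 4. The highest PBS value was 4.66 times the lowest, and the MC-21 libraries 3 and 4 lay in the middle of the PBS range. The difference was 0.39 with the widest interval of the 8 members, -0.81 to 1.59 (limma adjusted p = 0.776), and without MC-21 mouse 2 it was -0.09.

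Clec5a (also MDL-1, which signals through DAP12 and DAP10; chromosome 6, 40524897 to 40535804, - strand) was steadier, at 12.3, 19.7, 16.8 and 15.5 RPKM in PBS mice 5 to 8 and 23.7, 19.1 and 17.8 RPKM in MC-21 mice 2 to 4. Only PBS mouse 6, at 19.7 RPKM, lay above the lower MC-21 libraries. The difference of 0.32 (95% interval -0.11 to 0.75) did not pass the test (limma adjusted p = 0.481), although the highest PBS value was no more than 1.6 times the lowest.

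Mrc1 (the mannose receptor CD206, an endocytic receptor of macrophages and liver endothelium with no known signalling motif; chromosome 2, 14151041 to 14253684, + strand) measured 13.8, 27.1, 17.7 and 19.2 RPKM in PBS mice 5 to 8 and 26.5, 27.3 and 6.02 RPKM in MC-21 mice 2 to 4. MC-21 mouse 4 was the lowest of the 7 libraries, while the other MC-21 libraries were beside the highest PBS library. The difference was -0.18 (95% interval -1.20 to 0.85, limma adjusted p = 0.883), and without MC-21 mouse 4 it was 0.49 (adjusted p = 0.510). That library also had the lowest sums of the macrophage and Kupffer cell marker lists, 231 and 34.97 RPKM, whose part in the Mrc1 value was not tested.

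**Figure D2:**
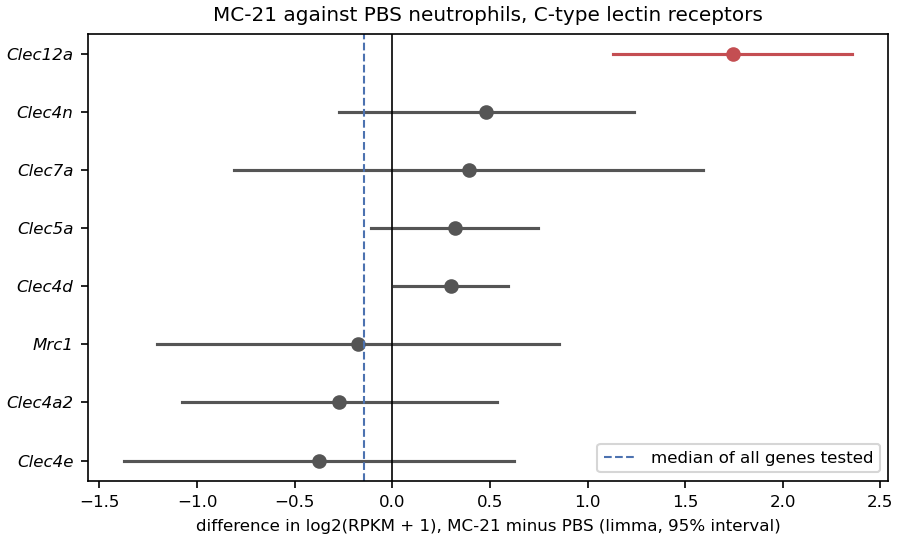
Difference of each receptor between MC-21 and PBS neutrophils on log2(RPKM + 1), with limma's 95% interval as a horizontal line, 0 as a solid and the median of all genes tested (-0.15) as a dashed vertical line. The interval of Clec12a (1.13 to 2.35) stands clear of both lines, and those of the other 7 receptors, apart from the lower end of Clec4d at 0.01, cross 0.

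The order of the levels was compared per length, in RPKM. In PBS neutrophils Clec4d was followed by Clec4n, Clec4e, Clec7a, Mrc1, Clec12a, Clec5a and Clec4a2, and of these neighbours only Clec4d and Clec4n, and Clec5a and Clec4a2, did not overlap. In MC-21 neutrophils Clec12a stood at position 3, behind Clec4d and Clec4n, and in PBS neutrophils at position 6. By the order of all genes, its mean level moved from rank 2894 to rank 997. In 3′ libraries the number of reads need not grow with the length of the transcript, so the order was also taken on RPKM times length. On that scale, with the longest transcripts, Clec12a was at position 7 in PBS and 3 in MC-21 neutrophils, but with the shortest annotated transcripts it was at position 6 in both groups, so that its place in the order depends on the length taken. With the longest transcripts Clec4d was first in both groups with a mean share of 53.5% of the members in PBS neutrophils instead of 66.4%.

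**Figure D3:**
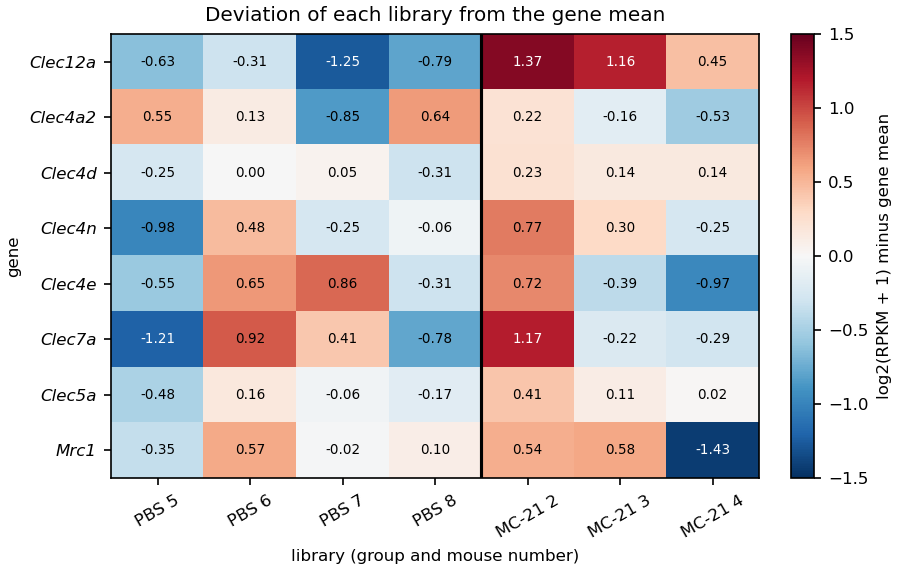
Deviation of each library (columns, group and mouse number) from the gene's mean over the 7 libraries, in log2(RPKM + 1), with red above and blue below the mean. Clec12a separates the groups, from -1.25 to -0.31 in PBS and from 0.45 to 1.37 in MC-21 libraries, whereas Clec4n, Clec7a and Clec5a are low in PBS mouse 5 and high in MC-21 mouse 2.

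Some libraries stood high or low in several members at once. MC-21 mouse 2 had the highest value of the 7 libraries in 5 members (Clec4d, Clec4n, Clec5a, Clec7a and Clec12a), and PBS mouse 5 had the lowest in 3 (Clec4n, Clec5a and Clec7a). Over the 6 members whose groups overlapped, 15 pairs were correlated on log2(RPKM + 1) across the 7 libraries, with exact permutation tests and adjustment over the 15 pairs. Clec4n and Clec5a had Pearson's r = 0.947 (exact permutation p = 0.00317, adjusted p = 0.0476) and Spearman's rho = 0.893 (exact permutation p = 0.0123, adjusted p = 0.0923). Without PBS mouse 5 and MC-21 mouse 2, the libraries farthest from the median of Clec4n, r was 0.730, and within the 4 PBS libraries it was 0.955. Clec5a and Clec7a had r = 0.875 (exact permutation p = 0.00734, adjusted p = 0.0551), rho = 0.893 (exact permutation p = 0.0123, adjusted p = 0.0923) and r = 0.635 without the same 2 libraries. No other pair had an adjusted p of r under 0.05, so 1 of 15 did. Both genes of a pair come from the same library and share its depth.

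Clec12a was also set against the other receptors of the same library. The ratio of Clec12a to Clec4d was 0.0237 to 0.0491 in PBS libraries and 0.0763 to 0.138 in MC-21 libraries. The ratio to Clec5a was 0.744 to 1.61 in PBS and 2.42 to 3.73 in MC-21 libraries. Against 6 of the 7 other members the ratios of the groups did not overlap, and the exception was Clec7a, at 0.337 to 1.74 and 1.29 to 3.01. A ratio within a library does not depend on its scaling. These ratios are given as a description, without a test. As a share of the summed RPKM of the members, Clec12a was 1.58 to 3.42% in PBS and 5.63 to 8.19% in MC-21 libraries, while the sum itself overlapped between the groups, at 581 to 860.1 and 765 to 1058 RPKM.

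**Figure D4:**
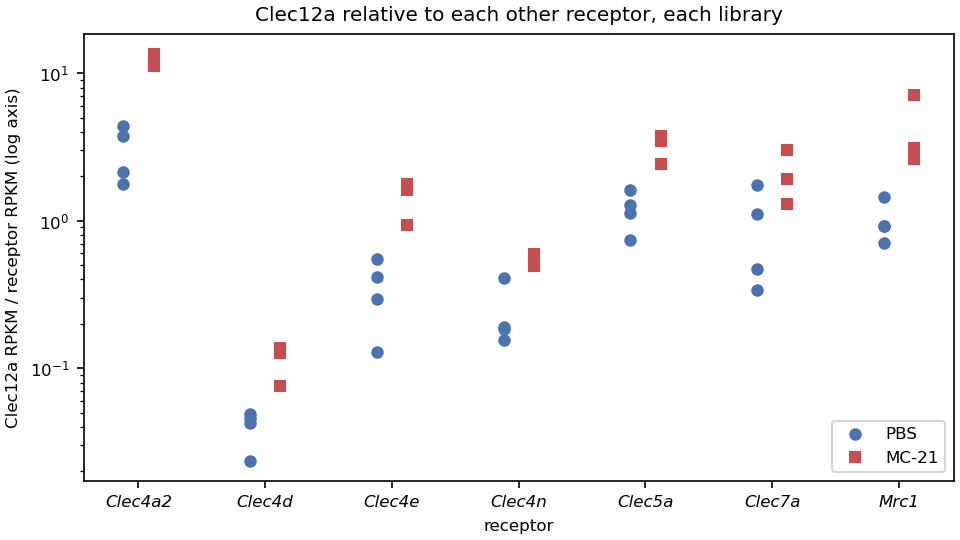
RPKM of Clec12a divided by that of each other receptor in the same library, on a log axis, with circles for the 4 PBS and squares for the 3 MC-21 libraries. The squares lie above all circles for every receptor apart from Clec7a, where the lowest square (1.29) is below the highest circle (1.74).

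By the smallest root mean square difference of the centred log2 values over the 7 libraries, among the 5859 genes that averaged 5 RPKM or more, the genes most like Clec12a were Irf7, a transcription factor of the interferon response (0.37), Cish, a cytokine signalling inhibitor (0.38), and Socs1, another one (0.41), set against a spread of Clec12a about its own mean of 0.94. Their own differences were 1.36, 1.38 and 1.44, with limma adjusted p = 0.0697 for Irf7, 0.0739 for Cish and 0.155 for Socs1. Genes chosen for likeness to Clec12a over these libraries share its group difference by that choice, so these differences are no separate result. The genes most like Clec4d were Fcgr4, an activating Fc receptor that also pairs with FcRγ (0.07), Relt, a TNF receptor relative (0.07), and Bst1, an ectoenzyme of myeloid cells (0.07), beside a spread of Clec4d about its mean of 0.19.

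The adaptors of these receptors were abundant in both groups. Fcer1g, the FcRγ chain that Clec4d, Clec4e and Clec4n pair with, measured 1373 to 1632 RPKM in PBS and 1419 to 1568 RPKM in MC-21 libraries. Its difference of 0.01 had an interval of -0.25 to 0.26 (limma adjusted p = 0.978). Tyrobp, the DAP12 chain, measured 3811 to 6066 RPKM in PBS and 5555 to 6494 RPKM in MC-21 libraries, with a difference of 0.30 (interval -0.09 to 0.69, adjusted p = 0.469). Hcst, the DAP10 chain, measured 150.2 to 232 RPKM in PBS and 227 to 282 RPKM in MC-21 libraries, with a difference of 0.43 (interval 0.05 to 0.80, adjusted p = 0.288). Syk, the kinase through which activating members signal, measured 44.9 to 63.5 and 54.6 to 71.8 RPKM (difference 0.16, interval -0.21 to 0.53). None of the 4 passed the test, and the sign of the Fcer1g difference turned with quantile normalization.

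Card9, the adaptor downstream of Syk, was below the filter on low values and was not tested: it measured 0 to 0.233 RPKM in PBS and 0 to 0.223 RPKM in MC-21 libraries. Over the whole list of adaptors and signalling genes, 26 of 26 were in the table and 23 were tested, and with limma none had an adjusted p under 0.05, while 3 had an unadjusted p under 0.05 (1 higher and 2 lower in MC-21 neutrophils), a share near the 14.7% of all genes tested. The median difference of the 23 was 0.01, next to -0.15 over all genes. The largest differences were those of Rasgrp3 (-0.61, adjusted p = 0.616) and Itpr3, a calcium channel of the endoplasmic reticulum (-0.59, adjusted p = 0.266), both at a few RPKM.

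Genes known to be induced downstream of CARD9 or NFAT had a median difference of 0.53 over the 15 tested of 21 in the table. With limma none of the 15 had an adjusted p under 0.05, and 6 had an unadjusted p under 0.05, 5 of them higher, against 14.7% of all genes tested in either direction. Cxcl1, a neutrophil chemoattractant, measured 16.4 to 32.9 RPKM in PBS and 34.1 to 48.3 RPKM in MC-21 libraries, without overlap, with a difference of 0.83 (interval 0.26 to 1.39, adjusted p = 0.197). Egr2, an early response transcription factor, had the next largest difference, 0.76 (interval -0.15 to 1.67, adjusted p = 0.429). These genes have many other inducers besides the receptors described here.

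Other receptors of myeloid cells listed as inhibitory were set beside Clec12a. Whether each of them, such as Cd33 or Slamf1, carries an ITIM in the mouse was not checked, so the counts below are not counts of proven ITIM receptors. Most are of other families, but Clec4a4, Clec12b and Cd72 are C-type lectins and also stand in the list of other C-type lectins. Clec12b, among the genes lower in MC-21 neutrophils here, is thus counted again in that list and among the neighbours on the chromosome. Of 21 listed symbols, 18 had a row and 16 were tested. Lilrb4 and Lilrb3, without a row, are other names of Lilrb4a and Pirb, which had one. With limma none of the 16 had an adjusted p under 0.05. At an unadjusted p under 0.05 there were 6, 4 higher and 2 lower, against 14.7% of all genes tested. The median difference was 0.25. Lair1, a collagen receptor, had the largest difference, 1.25 (interval 0.18 to 2.32, adjusted p = 0.283), at 3.38 to 17.5 RPKM in PBS and 11.2 to 31.5 RPKM in MC-21 libraries, which overlapped. Cd300lf, a lipid-binding inhibitory receptor, did not overlap between the groups, at 111 to 178 RPKM in PBS and 230.1 to 339 RPKM in MC-21 libraries, and its difference of 0.91 (interval 0.46 to 1.37) had an adjusted p of 0.0837 with limma.

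Of the other C-type lectins and lectin-like genes, 50 of 59 were in the table and 22 were tested. Of the 22, 1 gene, Olr1 (LOX-1, a lectin-like receptor for oxidized low-density lipoprotein; chromosome 6, 129435264 to 129457183, - strand), had an adjusted p under 0.05, and 9 had an unadjusted p under 0.05, 4 higher and 5 lower, against 0.625% and 14.7% of all genes tested. The median difference of the 22 was -0.09. Olr1 measured 2.53, 9.93, 6.64 and 3.75 RPKM in PBS mice 5 to 8 and 34.0, 20.3 and 30.6 RPKM in MC-21 mice 2 to 4, and it rose by 2.23 (interval 1.40 to 3.05, limma adjusted p = 0.0378). Under 15 alternatives its adjusted p lay between 0.0145 and 0.244 and was under 0.05 in 6, without a change of direction. Without MC-21 mouse 2, 3 or 4 the limma adjusted p was 0.110, 0.0645 or 0.123, and without PBS mouse 5, 7 or 8 it was 0.0572, 0.0674 or 0.130. Clec4b2, a neighbour of Clec4n in the Dectin-2 cluster, had the next largest difference, 1.47 (interval 0.31 to 2.62, adjusted p = 0.251), from 0.242 to 3.74 RPKM in PBS and from 1.72 to 6.17 RPKM in MC-21 libraries.

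Olr1 and Clec12a lie in the same cluster of lectin genes on chromosome 6, with 119943 bases between them, and Clec7a lies between them, 12474 bases from Olr1. Of 40 other genes within 500 kb of a member, 18 were tested, 1 of these (Olr1) had an adjusted p under 0.05, and 6 had an unadjusted p under 0.05, against 0.625% and 14.7% of all genes tested, with a median difference of 0.07. The genes between Clec12a and Olr1 are named for their position, chosen after their values were seen. Clec12b, another ITIM receptor and the nearest of them at 10212 bases from Clec12a, had a difference of the opposite sign. It measured 1.25 to 2.32 RPKM in PBS and 0.444 to 0.775 RPKM in MC-21 libraries, without overlap, with a difference of -0.74 (interval -1.23 to -0.24, limma adjusted p = 0.188). Clec1a had a difference of -0.86 (adjusted p = 0.224) and Clec1b, a receptor best known from platelets, one of 0.68 (adjusted p = 0.306), and Clec9a, a receptor of dendritic cells, one of 0.20 (adjusted p = 0.818). The annotated span of Clec1a holds those of Clec1b and Clec9a on the opposite strand, and how reads were divided among them is not given in the sources used here. Of the 7 lectin genes of this stretch, the outermost, Clec12a and Olr1, were those with an adjusted p under 0.05.

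**Figure D5:**
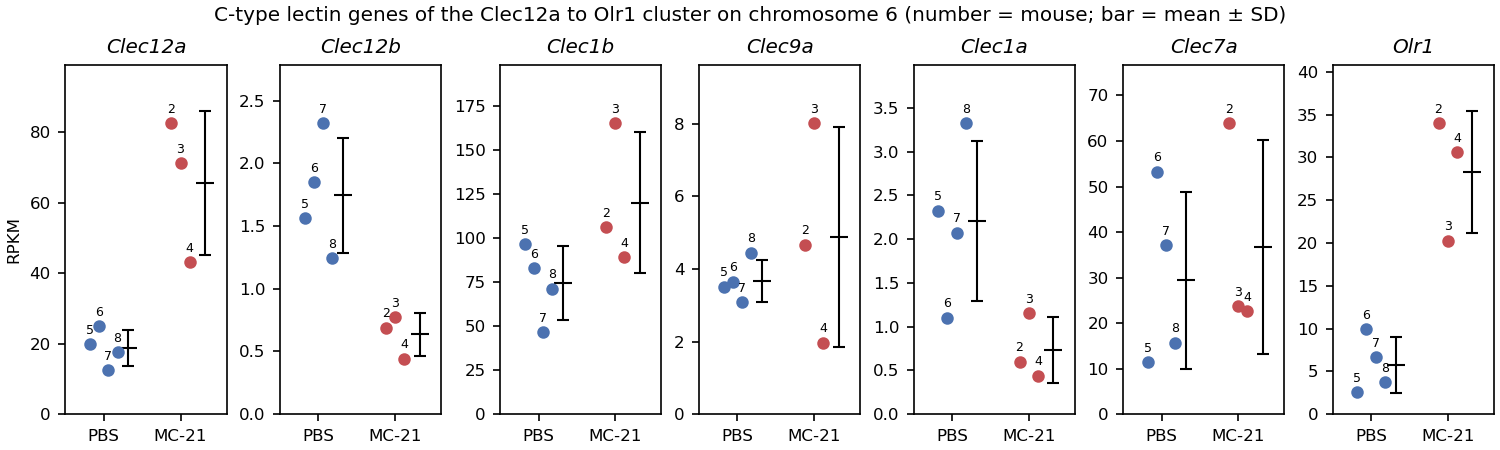
RPKM of the 7 C-type lectin genes of the stretch from Clec12a to Olr1 in each library (axes start at 0 and differ between genes, bars are mean ± SD, numbers are mice). MC-21 points lie above all PBS points for Clec12a and Olr1 and below them for Clec12b, while the ranges of the groups overlap for the other 4 genes.

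Marker genes were summed for each cell type that the sorted fraction could hold, and in bulk libraries fewer cells of a type and less RNA per cell cannot be told apart. Neutrophil markers, with S100a8, S100a9 and Ly6g among them, summed to 18309 to 30768 RPKM in PBS and 27990 to 41662 RPKM in MC-21 libraries. Most of that sum was S100a9, at 12275 to 20590 RPKM in PBS and 18142 to 25041 RPKM in MC-21 libraries. Of these markers 13 of 13 were tested, with a difference above 0 for 8 and below 0 for 5. The largest difference was that of Camp, -1.89 (limma adjusted p = 0.281). With limma none had an adjusted p under 0.05, and 5 had an unadjusted p under 0.05, 4 higher and 1 lower, against 14.7% of all genes tested. Monocyte and macrophage markers (12 of 14 listed symbols tested) summed to 506 to 621 RPKM in PBS and 231 to 317 RPKM in MC-21 libraries, without overlap. Of the 12 tested, 4 had an adjusted p under 0.05 with limma, all lower, against 0.625% of all genes tested. C1qa, C1qb and C1qc, subunits of a complement component that macrophages make, fell by 1.30, 1.36 and 1.13. Ccr2, the receptor bound by MC-21, fell by 1.51, at low levels of 1.91 to 3.26 RPKM in PBS and 0 to 0.39 RPKM in MC-21 libraries. The limma adjusted p of these 4 lay between 0.00816 and 0.0287. Of the 12 tested, the difference was below 0 for 11 and above 0 for 1, Adgre1 (0.02). That of Ly6c2 was -0.25 (limma adjusted p = 0.577).

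The sum of the monocyte and macrophage markers was lower in the MC-21 group, where Clec12a was higher, and within the groups the relation was mixed. In the MC-21 group, mouse 4 had both the lowest sum (231 RPKM) and the lowest Clec12a value (43.0 RPKM). In the PBS group, mouse 7 had the highest sum (621 RPKM) and the lowest Clec12a value (12.5 RPKM). Clec12a, Clec4a2, Clec7a and Clec4n are also carried by monocytes, and Mrc1 and Clec4g by liver endothelium. The other members, Clec4d among them, were likewise chosen as receptors that myeloid cells carry, a class that includes monocytes and macrophages. Kupffer cell markers (3 of 6 tested) summed to 56.7 to 85.0 RPKM in PBS and 34.97 to 65.3 RPKM in MC-21 libraries. Liver endothelial markers (8 of 8 tested) summed to 1094 to 2456 and 1168 to 2264 RPKM, with Clec4g alone at 474 to 1509 RPKM in PBS and 583 to 1539 RPKM in MC-21 libraries. Hepatocyte markers summed to 195 to 443 and 235 to 340 RPKM, T and NK cell markers to 7.83 to 15.4 and 7.32 to 21.8 RPKM, and B cell markers to 9.63 to 25.8 and 5.10 to 8.99 RPKM. Eosinophil markers summed to 10.4 to 19.5 and 8.82 to 15.6 RPKM, and dendritic cell markers to 4.45 to 7.68 and 4.63 to 10.7 RPKM. No marker with a row in the expression table was at 0 in every library. Emr1, also listed for monocytes and macrophages, is the former symbol of Adgre1, which had a row and was tested. Without a row were Prg2, Epx and Il5ra of the eosinophils and Pax5 of the B cells. The eosinophil sum thus held only Siglecf and Ccr3. The part that RNA of these other cells had in the levels of the 8 receptors was not tested.

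In a transcript of 1 kb, 1 RPKM stood for 1.59 reads in the shallowest library, MC-21 mouse 3, and for 3.96 reads in the deepest, PBS mouse 8. Behind the values of Clec4d there were 1200 to 2860 reads a library, and behind those of the other members apart from Clec4a2 between 72 and 797. Pearson's r between libraries was 0.943 to 0.974 over the genes tested, which are not independent replicates.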

How the data were processed

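Liver neutrophils of 4 PBS-treated and 3 MC-21-treated mice were measured, and samples were grouped by the labels. The authors mapped the 3′ reads to mm9 with HISAT 0.1.5, and the deposited RPKM values per gene were obtained in Partek Genomics Suite 6.6 (submitters' processing notes). The transcript annotation, the treatment of reads with several matches and of overlapping genes, and the use of strand and molecular barcodes are not given in the sources used here. Every column of per-sample values was matched to 1 mouse by its label.

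Differences (MC-21 minus PBS) were computed on log2(RPKM + 1), a scale that understates the change of low genes, with no further scaling between libraries. They were tested with limma 3.58.1 (lmFit, eBayes with trend) in R 4.3.3 over the 9594 genes that averaged 1 RPKM or more, with Benjamini-Hochberg adjustment over all of them. A call is an adjusted p under 0.05. Exact permutation tests (scipy 1.17.1, Python 3.11.15) were two-sided over all 35 splits. On simulated data for this comparison, with 200 of 9594 genes changed by 2 on the log2 scale, 178 (89.0%) were recovered and 12 unchanged genes were called. That change is larger than the difference of any member, and the noise was drawn independently for each gene. The share recovered thus does not apply to smaller differences such as those of the members.

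Reads were estimated from the steps of low RPKM values in genes with 1 annotated transcript length. Of 5879 such values, 74.9% lay within 0.1 of a whole read, so that reads are approximate and no count test was run. Coordinates are from the mm9 annotation, which held 14404 of the 16047 genes. Promoter windows are those of RefSeq, and no exon of another gene overlapped those of a member.

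The members and lists were chosen with earlier results of these data known. Named are the 8 members, Fcer1g, Tyrobp, Hcst, Syk and Card9, genes of each list with an adjusted p under 0.05, otherwise the 2 largest differences of a list, and the 3 genes most like each member whose groups did not overlap. Alternatives were a pseudocount of 0.1, no filter, a filter of 5 RPKM, quantile normalization, median centring, limma without a trend, a two-sample test per gene on log2 or RPKM values, and leaving out each library.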

Additional observations from a re-analysis of the deposited data

How the results depend on the processing

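No paired analysis was possible because the groups share no mouse number (5 to 8 against 2 to 4). The count of members with an adjusted p under 0.05, 1 as reported, was 0 with no filter on low values and with the two-sample test per gene on log2 or on RPKM values, and 0 to 1 when 1 library was left out; the same held for the other C-type lectins and for the neighbours on the chromosome, whose 1 call is Olr1. With no filter, a gene's own difference is the same and more genes are tested, and the limma adjusted p was 0.162 for Clec12a and 0.183 for Olr1. The two-sample tests on log2 and RPKM values gave 0.225 and 0.289 for Clec12a and 0.241 and 0.244 for Olr1; the cause was not tested. The mean share of Clec4d in PBS libraries, 66.4%, was 53.5% on RPKM times length, and the fewest reads of a member in a library, 19, were 3 with the shortest annotated transcript, both of Clec4a2.

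Of 195 single-gene values recomputed, 170 kept their direction and their side of the threshold, 17 (all of Clec12a or Olr1) kept their direction only and 8 changed sign, none of them called. When 1 library was left out, Clec4e lay between -0.84 and 0.0038, Clec7a between -0.086 and 0.75, Mrc1 between -0.52 and 0.49, and Fcer1g between -0.030 and 0.053. As a difference of RPKM means Mrc1 was 0.494, and with quantile normalization Fcer1g was -0.025. With median centring or quantile normalization the groups did not overlap for 3 members in place of 2. Depth limits Clec4a2 most, at 19 to 98 reads a library.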
